A study of Mus musculus with 9 samples.

Results

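The RNA content of wildtype thymic invariant natural killer T (iNKT) cells was read from 5 microarrays. They are the arrays labelled Utx wildtype among 9 in the series, and no array of the Utx knockout entered any value given here. The labels describe RNA from sorted thymic iNKT cells, taken from animals 8 to 12 weeks old. They call the arrays biological replicates of the mouse and place them in 3 batches. The array of replicate 1 (WT1) is the wildtype array of batch 1, that of replicate 2 (WT2) the wildtype array of batch 2, and those of replicates 3, 4 and 5 (WT3, WT4 and WT5) make up batch 3. The strain, the sort gate and the number of animals behind an array are not given in the sources used here. Animals were matched for sex and age, per the labels, which do not say which sex an array held.

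iNKT cells are T cells whose nearly invariant T cell receptor recognises lipids presented by CD1d. They arise from double-positive (CD4 and CD8 positive) thymocytes and mature into NKT1 cells, which depend on the factor T-bet, NKT2 cells, which are rich in the factor PLZF and make interleukin 4, and NKT17 cells, which make interleukin 17. Most stay poised, with cytokine messages and activating receptors present before any challenge. A bulk array reads the sum over these subsets, and in such samples fewer cells of a type and less RNA per cell cannot be told apart.

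The array carried 45101 probe sets. Of these, 34945 were annotated to a single gene and covered 18193 genes, and the level of a gene is the log2 value of its probe set with the highest mean over the 5 arrays. A gene was called high when its mean was at or above the 90th percentile of all non-control probe sets (10.14, log2), moderate between the 50th (6.05) and the 90th, low between the 25th (4.59) and the 50th, and bottom under the 25th. By this rule 2948 genes (16.2% of all) were high, 7412 (40.7%) moderate, 4158 (22.9%) low and 3675 (20.2%) bottom. The number of high genes was 1391 when the median over the probe sets of a gene was taken, so the choice of probe set sets much of this count. As a reference for signal without expression, 42 genes restricted to other tissues, such as the pituitary hormone genes Gh and Prl, had a median level of 4.73 and a 95th percentile of 6.79. Over all genes the median was 6.73, and 8994 genes (49.4%) lay above that 95th percentile.

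**Figure D1:**
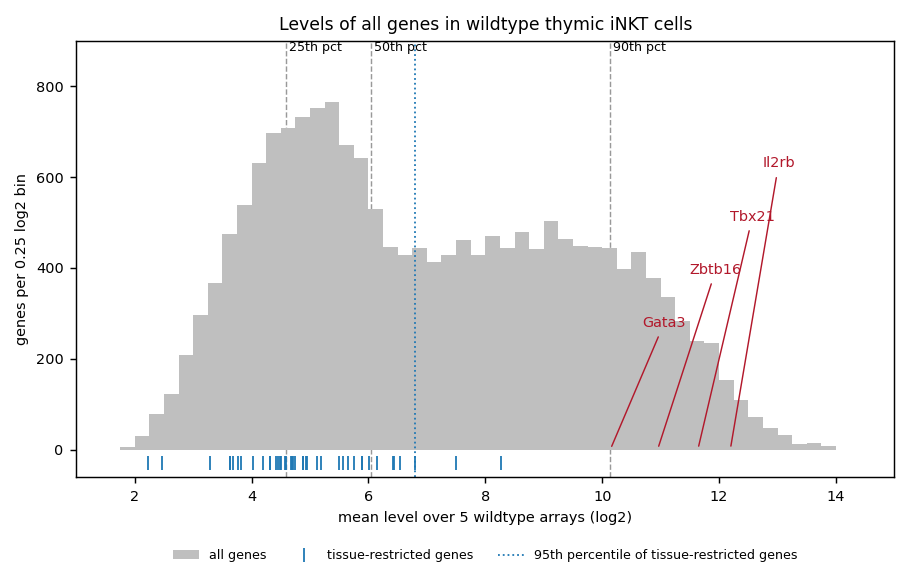
Histogram of the mean level (log2, over 5 wildtype arrays) of 18193 genes, in bins of 0.25 log2. Dashed lines are the 25th, 50th and 90th percentiles of probe sets (pct), blue ticks the 42 tissue-restricted genes and the dotted line their 95th percentile at 6.79; Zbtb16, Tbx21 and Il2rb sit to the right of the 90th percentile line and Gata3 on it.

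Levels of different genes can be set against each other only coarsely, because probe sets of the same gene differed widely. Among 9010 genes with 2 or more probe sets, the 2 highest differed by a median of 1.14 (log2), and among the 2231 of them that were high, by 1.71. Of those 2231 genes, 753 (33.8%) also had a probe set below the 50th percentile. Genes are therefore described below mainly by their band. Where the genes of highest or lowest mean are named, the order is that of probe set values and not of transcript amounts. A level under the 6.79 of the tissue-restricted genes does not by itself show absence. Many high genes also had a probe set that low.

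The label was set beside the markers of iNKT cells, and all 4 lay above the 6.79 of the tissue-restricted genes on every array. By mean, 49.4% of all genes lay above that line too, so passing it says little about cell type. Zbtb16, which encodes PLZF, the factor that directs iNKT development, had levels of 11.18, 10.69, 11.01, 10.82 and 11.03 on WT1 to WT5. All 5 values were high. Its mean was 10.95 ± 0.19 (SD, n = 5), and its 2 other probe sets had means of 9.75 and 5.91, so its band rests on the chosen probe set. Tbx21, which encodes T-bet, had levels of 11.73, 11.54, 11.64, 11.80 and 11.48, with a mean of 11.64 ± 0.13 (SD, n = 5). Il2rb, the receptor chain shared by interleukins 2 and 15, had levels of 12.34, 12.00, 12.15, 12.34 and 12.13, with a mean of 12.19 ± 0.15 (SD, n = 5). Both genes were high on every array as read here, while a second probe set of Il2rb had a mean of 9.84, in the moderate band. Gata3, a factor of T helper 2 and NKT2 programmes, had levels of 10.37, 9.91, 10.05, 10.18 and 10.17. Its mean of 10.14 ± 0.17 (SD, n = 5) lay just under the line between moderate and high, with WT1, WT4 and WT5 above that line and WT2 and WT3 below it. The probe set for NK1.1, the receptor that marks mature NKT1 cells, named both Klrb1b and Klrb1c, so neither gene was assigned a level from it. Values of that shared probe set were 12.00, 11.45, 11.64, 11.85 and 11.75.

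The targeted gene of the series was present in these wildtype cells. Kdm6a, which encodes Utx, a demethylase that removes a repressive mark from histone H3, had levels of 9.94, 9.98, 10.15, 9.79 and 9.996 on WT1 to WT5. All but WT3 were moderate, and its 3 other probe sets had means between 6.48 and 9.33. Kdm6b, which encodes the related demethylase Jmjd3, had a mean of 12.25 ± 0.03 (SD, n = 5) on its highest probe set. Its 2 other probe sets had means of 6.55 and 4.39, so the band of Kdm6b depends on which probe set is read. A further probe set, annotated to both Kdm6b and 1700064E03Rik, had a mean of 11.08 and was assigned to neither.

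Promoters of the markers Tbx21 and Gata3, and of Ifng, are printed as examples of sequence composition. No promoter window was matched for Zbtb16 or Il2rb. RefSeq promoter windows (build GRCm38.p6), from 250 bases before to 50 after the start of the gene, were matched for 14368 of the genes. Tbx21 lies at chr11:97115282-97115581 on the minus strand, Gata3 at chr2:9878551-9878850 on the minus strand and Ifng at chr10:118440796-118441095 on the plus strand. Capitals mark every CG dinucleotide and, in Ifng, the TATAAA motif.
Tbx21: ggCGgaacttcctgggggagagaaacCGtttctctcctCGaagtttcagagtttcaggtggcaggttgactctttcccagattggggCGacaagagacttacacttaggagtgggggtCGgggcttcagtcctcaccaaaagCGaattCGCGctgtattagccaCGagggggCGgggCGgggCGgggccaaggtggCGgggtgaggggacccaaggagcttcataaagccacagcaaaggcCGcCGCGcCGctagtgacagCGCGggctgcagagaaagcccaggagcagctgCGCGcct
Gata3: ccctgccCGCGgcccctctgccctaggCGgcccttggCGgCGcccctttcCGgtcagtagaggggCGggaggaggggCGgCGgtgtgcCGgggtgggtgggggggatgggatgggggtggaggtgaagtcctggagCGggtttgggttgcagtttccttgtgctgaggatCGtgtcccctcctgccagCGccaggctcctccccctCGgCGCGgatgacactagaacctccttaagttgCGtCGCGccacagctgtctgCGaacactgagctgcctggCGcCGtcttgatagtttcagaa
Ifng: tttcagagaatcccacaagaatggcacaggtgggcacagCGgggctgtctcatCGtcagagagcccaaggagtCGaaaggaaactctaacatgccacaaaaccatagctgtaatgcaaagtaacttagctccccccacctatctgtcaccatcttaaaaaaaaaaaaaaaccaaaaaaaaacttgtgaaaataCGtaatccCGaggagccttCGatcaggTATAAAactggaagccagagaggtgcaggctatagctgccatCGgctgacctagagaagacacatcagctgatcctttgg
The Tbx21 window held 21 CG dinucleotides at 62.0% GC, and its ratio of observed to expected CG was 0.75. The Gata3 window held 22 at 67.3% GC, with a ratio of 0.66. The Ifng window held 7 at 46.0% GC, with a ratio of 0.44, and its TATAAA motif began 30 bases before the start (position -30). Ifng was thus a high gene with the sparse CG content more often met in the lower bands.

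Across all matched promoters, CG content differed by band. The median ratio of observed to expected CG was 0.82 for high genes (n = 2427), 0.76 for moderate, 0.45 for low and 0.33 for bottom genes, against 0.67 over all. The motif TATAAA, searched on both strands, was in 7.33% of windows of high genes and 16.0% of windows of bottom genes, against 9.86% of all windows. The ETS motif CCGGAAGT, searched on both strands, was in 9.77% of windows of high genes, 1.47% of bottom genes and 6.17% of all. The T-box motif AGGTGTGA, searched on both strands, was in 0.70% of windows of high genes, 1.36% of bottom genes and 1.06% of all. Neither of these last motifs was found in the 3 printed windows. A match is a string of letters and not a shown binding site, and the ETS motif itself contains a CG.

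Many of the highest probe set values belonged to housekeeping messages. Of the 20 genes with the highest means, between 13.56 and 13.98, 14 encode ribosomal proteins, Rpl41 and Rplp2 among them. The other 6 were Tmsb10 and Tmsb4x, which bind actin monomers, Actb, Eef1a1, an elongation factor of translation, B2m, the light chain of MHC class I, and Tpt1. Their SDs over the 5 arrays ran from 0.0026 to 0.147. In the list of cytosolic ribosomal proteins, 16 of 18 measured members were high, with Rpl37 (mean 4.40) and Rps16 (mean 2.80) in the bottom band, each as read by its highest probe set.

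Transcription factors of T cell and iNKT development were mostly high. Of 41 measured members of the list, 23 were high, 15 moderate and 3 low, and the median was 10.50 against 6.73 over all genes. With the median over probe sets, 9 were high. Id2 (12.75), an inhibitor of E proteins, Lef1 (12.72), Myb (12.68), Satb1 (12.66), Ets1 (12.58) and Bcl11b (12.48), needed for T cell identity, were all high on every array. Their SDs ran from 0.03 for Ets1 to 0.14 for Myb, Satb1 and Bcl11b. Runx3, a partner of T-bet, had levels of 10.91, 10.26, 10.59, 10.73 and 10.49, high on every array with WT1 at the top and WT2 at the bottom. Its second probe set had a mean of 6.05. The signal-induced factors Egr1 (12.20 ± 0.03) and Egr2 (11.11 ± 0.08; SD, n = 5) were high as well, and Egr1 hardly moved between arrays.

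A few factors of this list lay within the range of tissue-restricted genes. Eomes, the T-box factor of conventional natural killer cells, had a mean of 5.19 ± 0.18, Hic1 of 5.40 ± 0.34, and Foxp3, the factor of regulatory T cells, of 5.74 ± 0.31 (SD, n = 5 each). Zbtb7b, which directs CD4 lineage choice, had 6.60 ± 0.28. All 4 lay under the reference of 6.79. As a contrast, 20 factors of other lineages, such as Klf1 of red cells and Sox2 of stem cells, held 0 high members, 3 moderate, 12 low and 5 bottom, with a median of 5.07. Ebf1, a B cell factor, was the only one of the 20 above 6.79, with 7.28, 8.83, 7.64, 8.07 and 8.19 on WT1 to WT5. Tcf7, a factor of early T cells, had no single-gene probe set and was not analysed here.

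**Figure D2:**
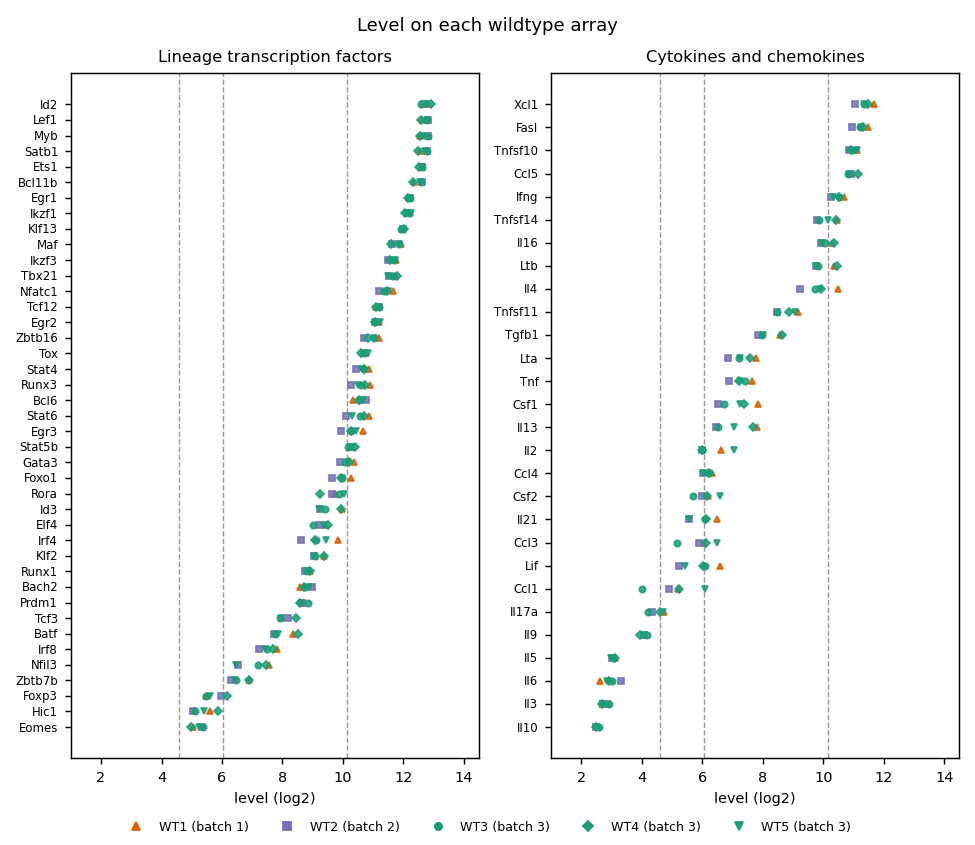
Level (log2) of each measured lineage transcription factor and each cytokine or chemokine on the 5 wildtype arrays, with shape and colour giving array and batch and dashed lines the 25th, 50th and 90th percentiles of probe sets. Of 41 factors 23 were high by mean, against 5 of 28 cytokines; probe sets limit comparison between rows.

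Genes of the T cell receptor machinery were high or moderate. Of 25 measured members, 18 were high and 7 moderate, with a median of 11.29. The CD3 chains that carry the receptor signal, Cd3d (12.93 ± 0.08), Cd3g (12.91 ± 0.08) and Cd3e (12.87 ± 0.05; SD, n = 5 each), hardly moved between arrays. Ptprc (12.48), which encodes CD45, Cd2 (12.44) and the phospholipase Plcg1 (12.36) were also high on every array. Sh2d1a (11.26 ± 0.09), which encodes the adaptor SAP needed for iNKT development, was high. Grap2 (7.31), an adaptor, Cd1d1 (9.09), which presents lipid to iNKT cells, and the SLAM receptor Slamf1 (9.23) were moderate.

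Both coreceptors were high by their highest probe sets. A second probe set of Cd4 had a mean of 7.74, and the others of Cd8a had means from 7.19 to 10.63. Cd4 had levels of 11.32, 11.30, 11.22, 11.48 and 11.15. Cd8a had levels of 11.47, 12.04, 11.72, 11.88 and 11.67, with WT2 highest and WT1 lowest. Mature iNKT cells of mice are CD4 positive or double negative, and CD8 marks double-positive and CD8 lineage thymocytes. The bulk value does not say which cells carried the Cd8a message.

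Receptors of natural killer cells ranged from high to bottom. Of 20 measured members, 10 were high, 8 moderate and 2 bottom, with a median of 9.93. Klrd1, which encodes CD94, had a mean of 12.71 ± 0.13, Klre1 of 11.76 ± 0.03 and Klrk1, which encodes NKG2D, of 11.64 ± 0.16 (SD, n = 5 each). The inhibitory receptors Klra5 (11.58 ± 0.23), Klrc1 (11.24 ± 0.14) and Klra7 (10.94 ± 0.10) were high on all arrays too. Ncr1, which encodes the natural killer receptor NKp46 (mean 3.51), and Klra1 (mean 3.60) were in the bottom band. These Klr genes have near-identical relatives, so a probe set may read more than the gene it names.

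Among 23 measured cytokine receptors, 10 were high and 13 moderate, with a median of 9.50. With the median over probe sets, 6 were high. Il7r (13.10 ± 0.12), the receptor of a survival cytokine, Il2rb, Il27ra (11.98 ± 0.17), and both chains of the interleukin 18 receptor, Il18r1 (11.89 ± 0.32) and Il18rap (11.46 ± 0.23; SD, n = 5 each), were high. Tgfbr2 (11.44 ± 0.14) was high as well. Ifngr2 (6.28) and Il12rb2 (6.63), chains of the receptors for interferon gamma and interleukin 12, lay under the reference of 6.79, while Ifngr1 (10.59) was high. The receptor for interleukin 25, Il17rb, a marker of NKT2 cells, varied most in this list, with levels of 11.07, 9.36, 10.30, 10.18 and 10.30. WT1 stood above and WT2 below a tight batch 3.

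Many homing receptors and integrins were high. Of 29 measured members, 14 were high, 10 moderate, 3 low and 2 bottom, with a median of 9.99. Cxcr3, a receptor of NKT1 cells, had levels of 12.72, 12.08, 12.27, 12.60 and 12.35, and Cxcr4 had a mean of 12.31 ± 0.17 (SD, n = 5). Itgae (12.28 ± 0.27), the chain CD103, Selplg (12.13 ± 0.18), a selectin ligand, and Itgal (12.05 ± 0.10; SD, n = 5 each) were high on all arrays. Ccr3 (3.84) and Ccr1 (4.51) were in the bottom band, and Itgax (5.09), Ccr4 (5.20) and Cxcr5 (5.49) were low. S1pr1, the receptor that drives exit from the thymus, was moderate with levels of 7.24, 6.75, 6.89, 6.95 and 7.16.

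Of 14 measured costimulatory and coinhibitory receptors, 6 were high, 6 moderate and 2 low, with a median of 10.05. Icos (12.71 ± 0.23), Cd28 (12.03 ± 0.07) and Cd27 (11.62 ± 0.16; SD, n = 5 each), all costimulators, were high. The inhibitory receptors Havcr2 (5.01) and Lag3 (5.53) were low. Ctla4, another inhibitory receptor, had levels of 6.67, 7.98, 7.04, 7.79 and 7.07, with WT2 and WT4 above the other arrays.

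Cytokines were not high as a group. Of 28 measured members, 5 were high (17.9%, near the 16.2% of all genes), 13 moderate, 4 low and 6 bottom, and the median of 7.12 was near that of all genes. The 5 high members were Xcl1 (11.38 ± 0.23), a chemokine for dendritic cells, Fasl (11.24 ± 0.20) and Tnfsf10 (11.00 ± 0.12), which trigger cell death, Ccl5 (10.93 ± 0.14) and Ifng (SD, n = 5 each). Ifng, the signature cytokine of NKT1 cells, had levels of 10.69, 10.26, 10.51, 10.51 and 10.33, high on every array. Il4, the signature of NKT2 cells, had levels of 10.48, 9.24, 9.71, 9.92 and 9.88. Only WT1 was in the high band for Il4, and WT2 was the lowest, and its SD was 0.44 against 0.17 for Ifng. Il17a, the signature of NKT17 cells, had levels of 4.73, 4.34, 4.20, 4.59 and 4.71, inside the range of tissue-restricted genes. Il10 (2.52), Il3 (2.77), Il6 (2.94) and Il5 (3.05) were in the bottom band on all arrays.

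Granule genes of killer cells were mostly high, with gaps. Of 18 measured members, 12 were high, 2 moderate, 2 low and 2 bottom, with a median of 10.87. Ctsw (13.14 ± 0.15), a protease of killer cells, Nkg7 (12.95 ± 0.11), Srgn (12.80 ± 0.05), which packs granules, and Ctla2a (12.12 ± 0.24; SD, n = 5 each) were high. Gzmb (11.83 ± 0.09) and Gzma (11.44 ± 0.23), granzymes, were high too. Gzmd (1.79), Gzme (2.34), Gzmm (5.06) and Gzmk (5.35) lay under the reference. Prf1, which encodes perforin, had a mean of 8.84 ± 0.11 (SD, n = 5) and was moderate.

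The lists of the 3 effector subsets differed in their share of high members. NKT1 genes had 20 of 26 measured members high, 4 moderate, 1 low and 1 bottom, with a median of 11.24. NKT2 genes had 11 of 21 high and 9 moderate, with a median of 10.24; 6 were high with the median over probe sets. Icos and Lef1 stood among them, as did Izumo1r (11.69 ± 0.31; SD, n = 5), the receptor FR4, while Il13 (7.10 ± 0.63) and Ccr4 were not high. NKT17 genes had 6 of 15 high, 8 moderate and 1 bottom, with a median of 9.71, and the high members Il7r, Il18r1, Itgb7 (11.81), Ccr2 (10.90), Blk (10.60) and Nrp1 (10.20) are also found in other T cells. The lists are not independent of each other, since several genes stand in more than a single list, and no subset share can be read from these medians.

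Precursor and double-positive thymocyte genes were high as well. Of 13 measured precursor genes, 11 were high (median 10.67; 6 with the median over probe sets), among them Cd24a (11.46 ± 0.25), which marks immature cells, and Sox4 (10.62 ± 0.30). Of 16 double-positive markers, 10 were high and 6 moderate (median 11.12; 4 high with the median over probe sets). Rag1, which cuts antigen receptor genes, had levels of 11.63, 12.24, 12.01, 11.86 and 11.94. Dntt, which adds bases at their joints, had levels of 12.20, 12.62, 12.44, 12.34 and 12.47. WT2 was highest and WT1 lowest for both. Ptcra (8.63), the surrogate receptor chain of immature thymocytes, and Rag2 (8.23) were moderate. The mean over the 16 markers was 10.33 on WT1, 10.82 on WT2 and 10.57 to 10.60 on the arrays of batch 3. Whether these messages came from immature iNKT cells or from other thymocytes in the sort was not tested.

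Few markers of other cell types were high, and the share over all genes was 16.2%. The median of the B cell list lay near the 6.73 of all genes, and those of the other lists lay lower. Over the B cell list, 1 of 10 measured members was high, 5 were moderate and 4 low (median 6.58), and the list mean ran from 6.65 to 6.95 over the arrays. The high member was Ighm (10.47 ± 0.14; SD, n = 5), and 0 were high with the median over probe sets or without probe sets whose suffix marks possible cross-hybridisation. In all, 5 of the 10 lay above the reference of 6.79: Ighm, Ebf1 (8.00 ± 0.59), Ms4a1 (7.45 ± 0.32), Cd79b (7.41 ± 0.33) and Cd79a (6.81 ± 0.29; SD, n = 5 each). Among the other 5, Pax5 (4.87 ± 0.13; SD, n = 5) was low. Over the macrophage and dendritic list, 1 of 17 was high (median 5.27), with list means from 5.74 to 6.24. That member was Cd74 (10.36 ± 0.26), the invariant chain of MHC class II, with H2-Aa (9.18) and H2-Ab1 (8.87) moderate and Itgam (3.38), Cd14 (3.71) and Csf1r (5.53) under the reference. Over the granulocyte list 0 of 9, the erythroid and platelet list 0 of 8 and the stromal list 0 of 16 were high, with medians of 5.32, 4.37 and 5.21. The part of such cells in the values of genes they share with iNKT cells was not tested.

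**Figure D3:**
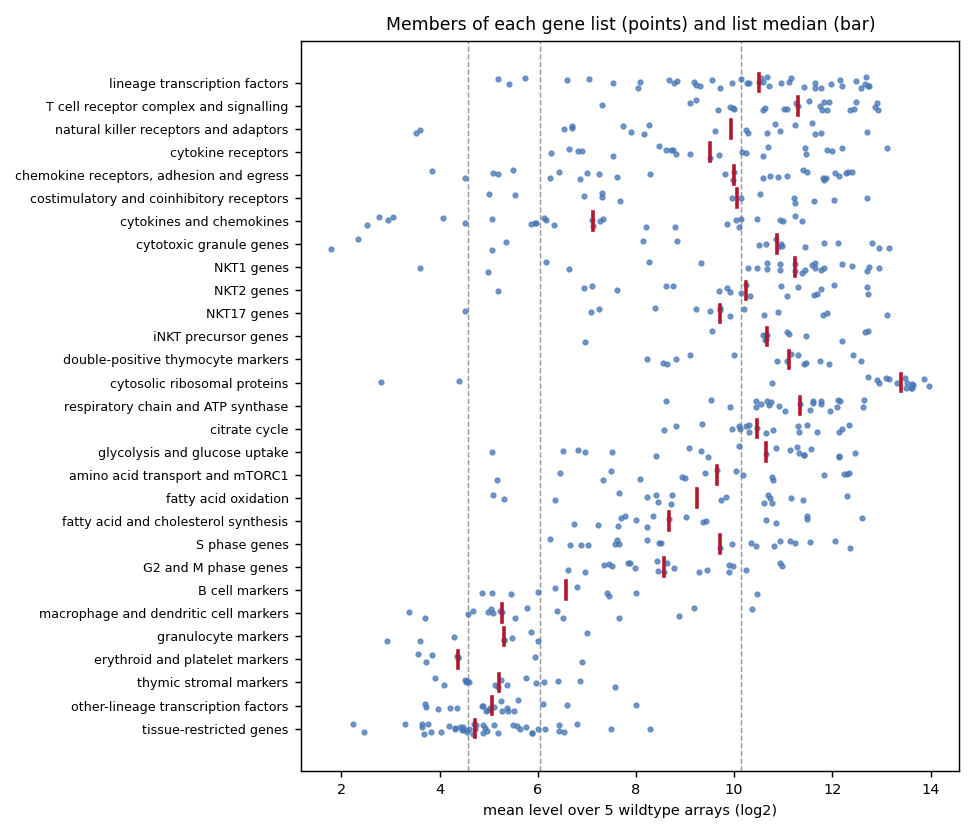
Mean level (log2, over 5 wildtype arrays) of every measured member of 29 gene lists (points, spread vertically at random for legibility) with the list median (red bar); dashed lines are the 25th, 50th and 90th percentiles of probe sets. Medians run from 13.40 for cytosolic ribosomal proteins to 4.37 for erythroid and platelet markers, and the tissue-restricted genes have a median of 4.73.

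Mitochondrial energy genes were high in most lists of metabolism. Of 23 measured genes of the respiratory chain and ATP synthase, 20 were high and 3 moderate, with a median of 11.35. Cox5b (12.64 ± 0.12), a subunit of cytochrome oxidase, and Atp5a1 (12.62 ± 0.07; SD, n = 5 each), a subunit of ATP synthase, stood among them, while Cox7c (8.62) was moderate. Of 19 citrate cycle genes, 13 were high and 6 moderate (median 10.46), with Mdh2 (12.33), Mdh1 (12.21) and Cs (12.13) high and Suclg2 (8.57) and Idh2 (8.82) moderate. None of either list was low or bottom.

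Genes of glycolysis were mostly high or moderate. Of 21 measured genes, 11 were high, 9 moderate and 1 low (median 10.65; 7 high with the median over probe sets). Aldoa (12.46), Ldha (12.14), Pgk1 (12.13), Slc2a3 (11.57) and Slc2a1 (11.43) were high, the last pair being glucose transporters. Aldoc (5.07), an aldolase of brain, and Slc16a3 (6.51), a lactate exporter, lay under the reference, and Hk2 (6.95) and Hk3 (6.82), forms of hexokinase, were just above it.

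Lipid genes were mostly moderate. Of 18 fatty acid oxidation genes, 7 were high, 9 moderate and 2 low (median 9.24), with Hadh (12.29) high and the regulators Ppara (5.09) and Ppargc1a (6.36 ± 0.68; SD, n = 5) under the reference. Of 17 genes of fatty acid and cholesterol synthesis, 5 were high and 12 moderate (median 8.68; 2 high with the median over probe sets). Acly (12.61), which makes cytosolic acetyl-CoA, was high and Sqle (6.73), of the sterol pathway, lay under the reference. Of 17 genes of amino acid transport and mTORC1, 7 were high and 9 moderate (median 9.65; 3 high with the median over probe sets), with the transporters Slc38a1 (12.35) and Slc7a1 (12.25) high.

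Cell cycle genes were present in both phases. Of 21 S phase genes, 9 were high and 12 moderate (median 9.70); 5 were high with the median over probe sets, and 5 without probe sets that may cross-hybridise. Pcna (12.37), the clamp of DNA polymerase, Rrm2 (12.06) and Mcm4 (11.54) were high. Of 21 genes of G2 and M phase, 3 were high (14.3%, under the 16.2% of all genes) and 18 moderate, with a median of 8.57. Those 3 were Birc5 (10.97), Mki67 (10.93 ± 0.35; SD, n = 5) and Top2a (10.24). The mean of that list was 8.42 on WT1, 8.96 on WT2 and 8.70 to 8.78 in batch 3, the same order as for the double-positive markers. Over all lists of function and metabolism, 189 of 373 different measured genes were high, against 16.2% of all genes, and these lists were drawn up for T cells and for pathways that most cells use.

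Stress and activation genes, which can respond to the handling of tissue, were mixed. Of 16 measured members, 8 were high, 5 moderate and 3 low, with a median of 9.55. Jund (13.07 ± 0.07), Dusp1 (12.37 ± 0.15) and Egr1 were high, while Fosb (5.98 ± 0.34), Atf3 (5.10 ± 0.52) and Hspa1a (5.07 ± 0.86; SD, n = 5 each) were low. Other heat shock genes of the list were high. Hspa1b had a mean of 12.11 ± 0.53 (SD, n = 5), with levels from 11.56 to 12.78, and Dnajb1 had a mean of 11.14. The part of stress and activation genes in other values was not tested.

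The spread between arrays differed by band. Over the 14518 genes above the 25th percentile, the median SD over the 5 arrays was 0.19 (log2), and within batch 3 alone it was 0.18. High genes had a median SD of 0.12, moderate genes of 0.21, low genes of 0.19 and bottom genes of 0.15. Of the high genes, 2601 (88.2%) spanned at most 0.5 (log2) over the arrays, and 16 (0.543%) spanned more than 1. Of the moderate genes 47.3% spanned at most 0.5 and 7.29% more than 1, and of the low genes 55.1% and 12.0%. Over all genes above the 25th percentile these shares were 57.8% and 7.26%. In all, 14882 genes (81.8%) had the band of their mean on all 5 arrays, with the lines for each array set at its own percentiles. That share was lowest, 66.2%, for the low band. Pgk1, with an SD of 0.01, and Rpl27a, with 0.0026, were among the 10 genes of smallest SD above the 50th percentile.

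**Figure D4:**
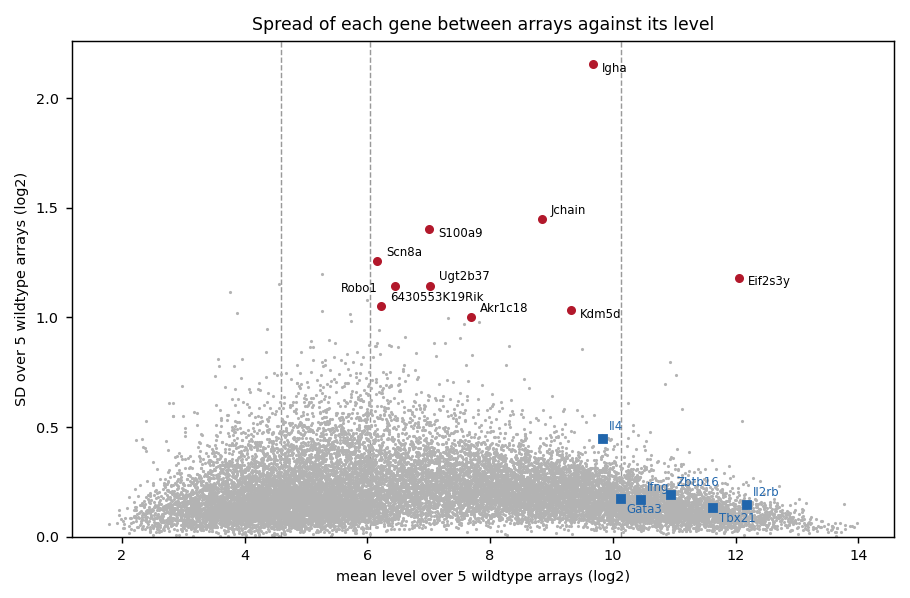
SD over the 5 wildtype arrays against mean level (both log2) for 18193 genes (grey), with the 10 genes of largest SD above the 50th percentile of probe sets in red and 6 signature genes in blue; dashed lines are the 25th, 50th and 90th percentiles of probe sets. Tbx21 and Il2rb lie among genes of small spread, Il4 reaches 0.44 and Igha 2.16.

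The whole arrays were similar but ordered. Medians over all probe sets lay between 6.04 and 6.09 and interquartile ranges between 3.44 (WT2) and 3.84 (WT1). Pearson's r over genes, which are not independent replicates, ran from 0.985 for WT1 with WT2 to 0.994. Within batch 3, between 1163 and 1594 probe sets had exactly equal values on any pair of arrays, and no probe set did between batches. The mean of batch 3 lay between WT1 and WT2 for 13659 of the 14518 genes (94.1%). Both WT1 and WT2 lay above, or both below, all 3 arrays of batch 3 for only 8 genes (0.0551%). Whether a batch adjustment was made before deposit was not given in the sources used here. What caused this order was not tested, and every SD and batch comparison here rests on values that carry it.

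The sole contrast among these arrays is between batches, and limma's moderated F test over the 3 batches called 0 of 14518 genes (0% called) after Benjamini-Hochberg adjustment at 0.05. By unadjusted p, 727 genes (5.01%) were under 0.05. Setting WT1 against batch 3 called 0 genes (0%), and setting WT2 against batch 3 called 0 (0%). Their counts by unadjusted p, on the same cut-off, were 224 and 385. Batches 1 and 2 held 1 wildtype array each, assumed to vary like the 3 of batch 3, with 2 residual degrees of freedom. Counts of 0 from so few arrays do not show that the batches were alike. Without WT4 the unadjusted counts were 1524, 1255 and 921, and the adjusted calls stayed at 0. Without WT5 the F test gave 365 unadjusted and the contrast of WT2 gave 232, and without WT3 the F test gave 466.

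Sex-linked genes ran through the same order of arrays. Eif2s3y, on the Y chromosome, had levels of 13.58, 10.32, 12.35, 11.74 and 12.31 on WT1 to WT5, and Kdm5d had 10.60, 7.85, 9.66, 8.83 and 9.66. Uty, the Y-linked relative of Utx, had 8.86, 6.15, 7.83, 7.46 and 7.59. Xist, the RNA of the inactive X chromosome, had 4.80, 6.79, 6.03, 4.90 and 5.83. WT1 was highest for the 3 Y-linked genes and lowest for Xist, and WT2 the reverse. Eif2s3y and Kdm5d lay above the 6.79 of the tissue-restricted genes on every array, and Uty on all but WT2. Xist lay under that line on all arrays but WT2, where it was at the line. Other probe sets of Xist had means of 4.37 and 3.25. By p, Uty (adjusted p = 0.982) and Eif2s3y (adjusted p = 0.982) stood among the 10 genes of smallest p in the limma F test, and neither passed. The sex of the animals behind each array was not given in the sources used here.

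Messages of plasma cells and granulocytes had the 3 largest SDs among genes above the 50th percentile. Igha, the heavy chain of immunoglobulin A, had levels of 8.72, 10.78, 7.89, 12.93 and 8.05, an SD of 2.16. Jchain, which joins immunoglobulin units, had 8.07, 9.74, 7.52, 10.95 and 7.94, an SD of 1.45. For both, WT4 was highest and WT2 next, while WT1, WT3 and WT5 lay together. S100a9, a granulocyte protein, had 5.33, 8.74, 7.09, 7.93 and 5.92, an SD of 1.40, and the mean of the 9 granulocyte markers was 4.44 on WT1, 5.77 on WT2 and 4.98 to 5.21 in batch 3. The other 7 of the 10 largest SDs were those of Scn8a (1.26), Eif2s3y (1.18), Ugt2b37 (1.14), Robo1 (1.14), 6430553K19Rik (1.05), Kdm5d (1.03) and Akr1c18 (1.003). The variable chain genes Igkv6-15 (4.34 on WT1, 6.81 on WT2, mean of batch 3 5.40) and Igkv6-14 (3.91, 6.41 and 5.04) also stood among the 10 of smallest p, with an adjusted p of 0.982 for both in the limma F test. The part of these cells in other values was not tested.

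Signature lists differed between arrays by unequal amounts. The mean of the NKT1 list spanned 0.23 (log2) over the arrays and that of the precursor list 0.10. The mean of the NKT2 list spanned 0.38, that of the cytokine list 0.51 and that of the NKT17 list 0.62. Of the 31 lists, the granulocyte (1.33) and sex-linked (1.68) lists alone spanned more than the NKT17 list. In the NKT2, cytokine and NKT17 lists WT1 was highest and WT2 lowest (NKT17 genes 9.90 and 9.27). That is the opposite of the order of the double-positive and G2 and M phase lists. No test of these list means was made.

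**Figure D5:**
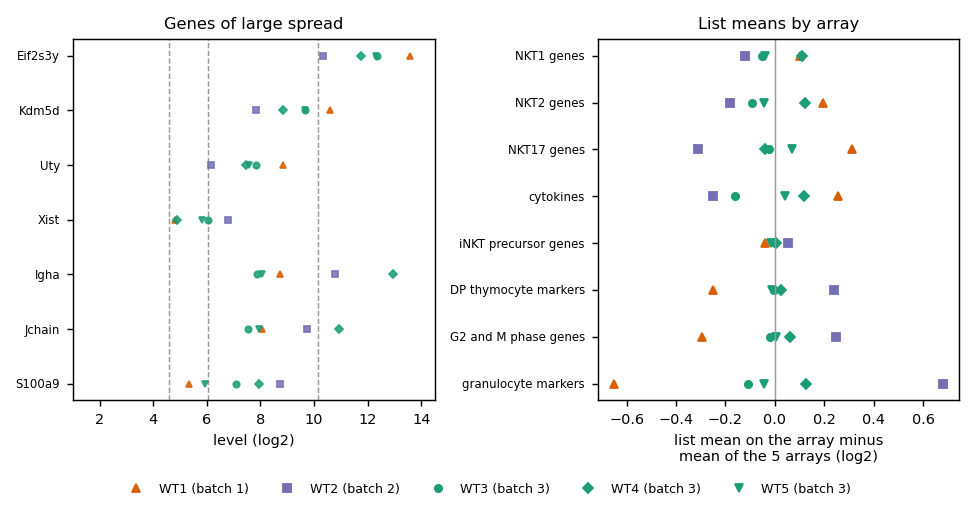
Left, level (log2) of 7 genes of large spread on each wildtype array, with dashed lines at the 25th, 50th and 90th percentiles of probe sets; right, mean of 8 gene lists on each array minus the mean of the 5 arrays (log2). WT1 and WT2 take opposite ends for Eif2s3y, Kdm5d, Uty and Xist and for the NKT17, cytokine, double-positive (DP), G2 and M phase and granulocyte lists, with batch 3 between, and WT4 is highest for Igha and Jchain.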

How the data were processed

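Values of 5 arrays labelled Utx wildtype were taken from the deposited series table, which holds a log2 level for every probe set on every array. The authors made these log2 values with RMA (background correction, quantile normalization and probe summary), per the submitters' processing notes, where no version is stated. RNA was amplified before labelling with biotin, per the labels' protocols, and amplification can compress differences. With arrays, precision is limited by their number.

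The platform annotation named a single gene for 34945 probe sets, more than that for 932 and none for 9160, beside 64 controls. By Entrez identifier, 34741 of the 34945 were found in the RefSeq gene table, where 0 symbols differed. Per gene the probe set of highest mean over the 5 arrays was used. Errors are SDs over arrays, which measure only the spread between these samples. Sample titles gave group, replicate and batch. No pair of arrays was identical. The batch test used limma 3.58.1 (R 4.3.3) with lmFit, eBayes and Benjamini-Hochberg adjustment, on genes above the 25th percentile of probe sets. Its script was run on simulated data, where 2-fold changes placed on WT1 were nearly never recovered and 4-fold ones mostly were. That outcome depended on how gene variances were simulated, and earlier versions with other variances recovered no changes. Other steps used Python 3.11.15, pandas 2.3.3 and numpy 2.4.6.

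The members, gene lists and rules were chosen with earlier results of these data known. A rule for names covered the 4 markers, Runx3, Ifng, Il4, Il17a, Cd4, Cd8a, Kdm6a, Kdm6b and the sex-linked genes. It also covered the 20 genes of highest mean and, for each list, up to 6 members of highest and 4 of lowest mean. The 10 genes of largest and of smallest SD and the 10 of smallest p between batches completed it. All 323 genes under this rule are the named genes of the closing sections, and the text above gives only part of them. Other genes named, and the gene families of the closing section, were chosen after their values were seen. Alternatives covered probe set choice, scaling, thresholds, filters, eBayes settings, batch and each array left out.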

Additional observations from a re-analysis of the deposited data

Results flagged for a closer look

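Among 323 named genes, 3 had an array whose gap to the nearest of the other 4, divided by the range of the 5, was above Dixon's critical value of 0.71. Chance alone passes about 1 in 20 such groups, and here 0.929% of the genes did. Ccl5, a chemokine of NKT1 cells, had its highest level, 11.16, on WT4, against 10.81 to 10.91 on the other arrays. Gzmb, a granzyme, had its highest level, 11.98, also on WT4, against 11.77 to 11.81. Rpl37, a ribosomal protein gene read by a probe set of the bottom band, had 4.55 on WT3 against 4.33 to 4.39. Of 31 list means, 0 had such an array.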

How the results depend on the processing

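The number of high genes (2948) was 1391 with the median over the probe sets of a gene, 5463 with the line at the 80th percentile and 1455 at the 95th. Moderate genes were then 4897 at the 80th, and list members at a high level (189) were 123 at the 95th. The other 88 alternatives tried for the level counts, the median SD and the batch tests left each count within 1.5 times and the median SD within the spread of SDs between genes. Leaving out each array in turn gave 2940 to 2950 high, 7399 to 7452 moderate, 4123 to 4180 low and 3664 to 3681 bottom genes, 187 to 192 list members at a high level, a median SD of 0.168 to 0.189 and 0 calls in each batch test, where only arrays of batch 3 were left out. Of 323 named genes, 138 moved by over 1 SD with the median over probe sets and 32 of 312 without probe sets that may cross-hybridise (an alternative chosen after seeing the data), among them Zbtb16 (9.75) and Kdm6b (6.55). None moved with another quantile normalization, batch 3 alone, batch means (also chosen after seeing the data) or an array left out. Counts by list moved over 1.5 times for 17 of 31 lists with the line at the 95th percentile, 11 with the median over probe sets, 7 with the line at the 80th and 2 without probe sets that may cross-hybridise. No paired analysis was possible because only the wildtype group was used. The 5 arrays and the gaps between probe sets, not read depth, limit these values.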

Other observations

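Gene families drawn up after the levels were seen, and so given as description only, lay at opposite ends of the distribution. Of 19 heterogeneous nuclear ribonucleoproteins, which bind nascent RNA, 18 were high, with a median of 11.81 and Hnrnpk at 13.03. Of 35 subunits of respiratory complex I, 27 were high, as were 34 of 49 proteasome subunits (median 10.83; Psme1, an interferon-induced activator, at 12.57) and 30 of 47 translation initiation factors. Of 8 GIMAP GTPases, which support lymphocyte survival, 5 were high and 3 moderate, with Gimap3 at 13.08. Of 76 mitochondrial ribosomal proteins, 27 were high and 49 moderate, and 0 were low or bottom. The background was 16.2% of genes at a high level.

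At the other end, 0 of 39 olfactory receptors, 0 of 42 collagen chains, 0 of 86 keratins and keratin-associated proteins, 0 of 72 cytochrome P450 enzymes, 0 of 33 Hox cluster genes and 0 of 19 Wnt ligands were high. Of these families, the olfactory receptors had the largest share in the low and bottom bands, 97.4%, and the Wnt ligands the smallest, 84.2%. Solute carriers were spread over all bands, with 33 of 347 high, 146 moderate, 93 low and 75 bottom. Among 84 potassium channel subunits 2 were high, and Kcnn4, a calcium-activated channel of lymphocytes, had a mean of 10.89. Vomeronasal receptors, which sense pheromones, held 0 high members of 31 but 8 moderate ones, up to 9.58 for Vmn2r84.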
